A study of Homo sapiens with 9 samples.

Results

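The transcription factor ATF4 and the genes known to follow it when cells run short of amino acids were followed on 9 arrays of HT29, a line of human colon cancer cells. The 39 genes were listed by symbol, and 37 of them had a value among the 19775 genes of the array. GPT2 had no probe set named for it, and MARS1, the methionyl-tRNA synthetase, was named only on probe sets that carry a second gene. Each gene was represented by the probe set of that gene alone with the highest mean log2 intensity over the 9 arrays. There were 3 arrays of cells given instant caffeinated coffee (ICC) at 7 µg/mL, 3 of cells given caffeic acid (CA), a phenolic acid of coffee, at 1.68 µg/mL, both for 24 h, and 3 of cells that were not treated (Control). The labels number the arrays of each group 1, 2 and 3, and do not say what the number marks or whether the arrays came from separate cultures. The p-values therefore measure the spread between these arrays, which may be technical.

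ATF4 is the main transcription factor of the integrated stress response. The kinases GCN2, PERK, PKR and HRI sense uncharged tRNA, misfolded protein, double-stranded RNA and lack of haem, and phosphorylate the initiation factor eIF2, which slows most protein synthesis while ATF4 protein is made in larger amounts. ATF4 then pairs with C/EBP proteins on composite DNA elements and turns on genes that make, import and charge amino acids, along with genes that hold back growth or later shut the response off.

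Over all genes, ICC replicate 1 was the highest of the 9 arrays for 26.0% of genes, more than any other array, and had the highest median intensity. The correlation of log2 levels across genes lay between 0.995 and 0.998 for every pair of arrays, and median intensities per array were 43.8 to 46.6. Of the 12 colon epithelium markers, EPCAM, KRT8, KRT18, KRT19, KRT20 and LGALS4 had a mean log2 intensity between 11.27 and 14.38, whereas CDX2 (5.94), CEACAM5 (6.20) and CDH17 (4.15) were dim. Of the leukocyte markers, PTPRC was at 3.65, CD3E at 5.27, CD14 at 7.14 and LYZ, a secreted lysozyme, at 13.05. The 5 fibroblast markers ran from 3.70 (LUM) to 7.24 (COL1A1), and the 3 of endothelium from 4.13 (CDH5) to 6.12 (PECAM1). In bulk RNA, a lower level in every cell and a smaller number of cells that express a gene cannot be told apart.

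The sequence that ATF4 and C/EBP proteins bind was looked for upstream of the listed genes. The letters TGATGNAA, and TTNCATCA, which is the same element on the opposite strand, were searched in the RefSeq promoter windows of GRCh38.p14, which run 250 bases before to 50 bases after an annotated start. They occurred in 11 of the 34 listed genes that the promoter table holds (32.4%), against 4.46% of 27305 genes. Counted by windows of 300 bases, they occurred in 11 of 55 windows of the listed genes and in 3.62% of 35116 windows. NUPR1, PSPH, ALDH1L2, EIF4EBP1 and GPT2 were not in the table. The 6 matches that lay farthest upstream are given here with their surroundings, 5′ to 3′ on the gene's strand and with the matching letters in capitals, since they show the shared letters at different distances and in both orientations. They come from CHAC1 (chr15:40953236-40953295, plus strand, match at -209 from the start), AARS1 (chr16:70289660-70289719, minus strand, -187), SLC1A5 (chr19:46784878-46784937, minus strand, -97), ASNS (chr7:97872443-97872502, minus strand, -68), CEBPG (chr19:33374045-33374104, plus strand, -42) and GARS1 (chr7:30594819-30594878, plus strand, -33).
CHAC1: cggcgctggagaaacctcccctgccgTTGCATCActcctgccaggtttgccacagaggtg
AARS1: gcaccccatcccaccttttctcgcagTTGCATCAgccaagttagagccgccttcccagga
SLC1A5: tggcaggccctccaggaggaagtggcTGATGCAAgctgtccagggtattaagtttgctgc
ASNS: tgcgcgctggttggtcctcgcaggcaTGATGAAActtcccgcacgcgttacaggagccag
CEBPG: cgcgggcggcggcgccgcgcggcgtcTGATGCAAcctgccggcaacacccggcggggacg
GARS1: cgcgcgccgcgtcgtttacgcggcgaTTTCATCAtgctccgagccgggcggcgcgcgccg
The other matches began at -16 in JDP2, -7 in SLC1A4 and -4 in MARS1, and after the start, at 7 in SLC7A1 and 37 in SLC3A2. A match is a description of the sequence and was not set against the levels.

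The listed genes varied more between arrays of one group than most genes did. Their median SD within groups was 0.369 log2, against 0.114 for all genes. DDIT4, which restrains the growth kinase complex mTORC1, and CHAC1, an enzyme that breaks down glutathione, ranked 1 and 2 of 19775 genes by this SD. In all, 10 of 37 were among the 100 genes with the largest SD, a set that makes up 0.506% of all genes. From the lowest to the highest of the 9 arrays, DDIT4 spanned 9.87-fold and CHAC1 8.89-fold. SESN2, a leucine sensor that also restrains mTORC1, spanned 6.33-fold, CTH, which makes cysteine from cystathionine, 5.29-fold, and ASNS, asparagine synthetase, 5.14-fold. The median range of the listed genes was 0.967 log2, against 0.370 for all genes.

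**Figure D1:**
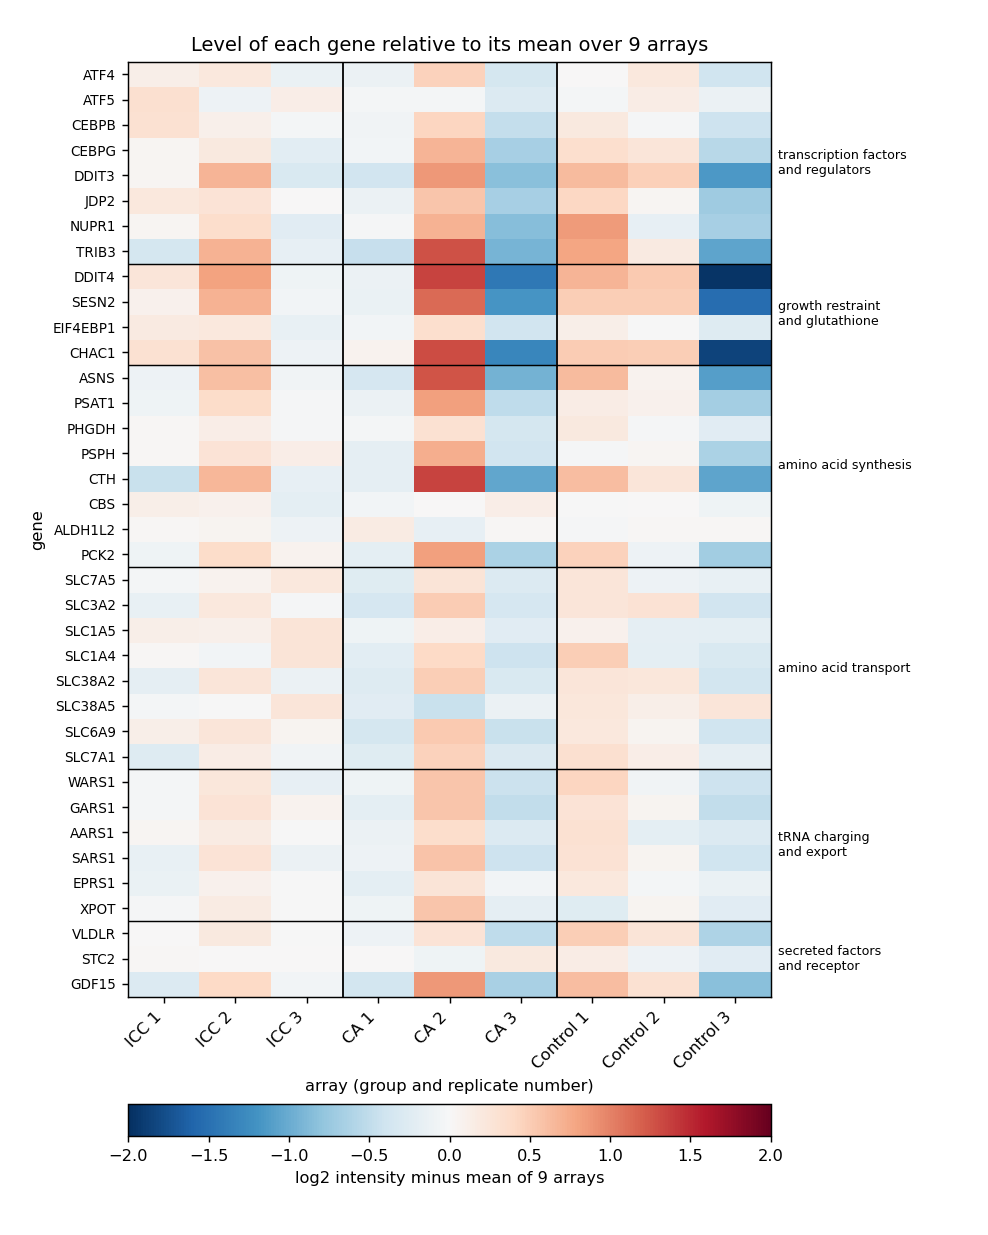
Log2 intensity of each of the 37 genes minus its mean over the 9 arrays, shown by colour, with arrays in columns (ICC, CA, Control, and replicate numbers 1 to 3 within each) and genes in rows by role. CA replicate 2 is red across most rows, CA replicate 3 and Control replicate 3 are blue, and the ICC columns are paler.

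The same few arrays were high or low for most of the listed genes. CA replicate 2 was the highest of the 9 arrays for 28 of 37 genes, and it was the highest for 10.3% of all genes. Control replicate 3 was the lowest for 18 of 37 genes, against 13.5% of all genes, and CA replicate 3 for 14 of 37, against 12.9%. Relative to each gene's own mean, the median of the 37 genes on ICC arrays 1, 2 and 3 was 0.02, 0.21 and -0.04 log2. On CA arrays it was -0.12, 0.52 and -0.42, and on Control arrays 0.27, 0.05 and -0.40. The medians of all genes lay between -0.02 and 0.05 on the 9 arrays.

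Whether coffee or caffeic acid moved these genes was asked by comparing the groups, with limma's moderated test over all genes and Benjamini-Hochberg adjustment, passing at an adjusted p under 0.05. None of the 37 passed for ICC against Control, for CA against Control or for ICC against CA, and 0.0% of all genes passed in each. At an unadjusted p under 0.05, 1 of 37 genes was reached in each comparison, against 7.73% of all genes for ICC against Control, 4.47% for CA against Control and 2.69% for ICC against CA. The comparisons with Control share the Control arrays. The fit does not pair the arrays by replicate number, so differences between the numbers add to its SE. Of the 37 differences, 30 were above 0 for ICC minus Control, 21 for CA minus Control and 28 for ICC minus CA. The shares of all genes above 0 were 60.2%, 51.4% and 60.6%. The median difference of the listed genes was 0.09 log2 for ICC minus Control, 0.01 for CA minus Control and 0.10 for ICC minus CA, and the medians of all genes were 0.03, 0.003 and 0.02. Each of these medians depended on single arrays. For ICC minus Control it was -0.07 without Control replicate 3. For CA minus Control, leaving out CA replicate 2 gave -0.30, leaving out Control replicate 3 gave -0.20 and leaving out CA replicate 3 gave 0.23. For ICC minus CA, leaving out CA replicate 3 gave -0.10 and leaving out ICC replicate 2 gave -0.01.

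The transporter SLC38A5, which exchanges glutamine and other neutral amino acids, was the listed gene with the largest moderated t for CA against Control. Its log2 intensity was 7.93, 7.96 and 8.21 on ICC arrays 1, 2 and 3, against 7.75, 7.52 and 7.86 on CA arrays and 8.20, 8.09 and 8.22 on Control arrays. All 3 CA arrays lay below all ICC and all Control arrays. The difference was -0.46 ± 0.10 log2 (SE) for CA minus Control (limma adjusted p = 0.996) and 0.33 ± 0.10 for ICC minus CA (adjusted p = 1.0), so neither passed. For ICC minus Control it was -0.13 ± 0.10 (adjusted p = 0.773).

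The glutamine transporter SLC1A5 had a log2 intensity of 11.74, 11.72 and 11.88 on ICC arrays, against 11.72, 11.45 and 11.43 on Control arrays. The ICC arrays lay above the Control arrays, though the closest pair differed by little. The difference of 0.25 ± 0.11 log2 did not pass (limma adjusted p = 0.644), and that for ICC minus CA was 0.22 ± 0.11 (adjusted p = 1.0). These were the only listed genes whose groups did not overlap: 1 of 37 for ICC against Control, 1 for CA against Control and 1 for ICC against CA, where 12.0%, 7.86% and 5.87% of all genes did not overlap in either direction.

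Of the other genes with the largest moderated t, PSPH, the last enzyme of serine synthesis, was 0.35 ± 0.26 log2 for ICC minus Control and 0.26 ± 0.26 for CA minus Control. A second PSPH probe set, with a mean log2 of 8.53, gave -0.22 and -0.14, and the mean of the gene's probe sets gave 0.02 and 0.05. XPOT, which exports tRNA from the nucleus, was 0.18 ± 0.17 and 0.23 ± 0.17 in the same comparisons, and 0.06 and 0.11 with its probe sets averaged. ATF5, a transcription factor related to ATF4, was 0.12 ± 0.12 for ICC minus Control, -0.11 ± 0.12 for CA minus Control and 0.23 ± 0.12 for ICC minus CA. STC2, a secreted glycoprotein, was 0.10 ± 0.10 for CA minus Control, and for ICC minus CA the leucine transporter SLC7A5 was 0.17 ± 0.15 and the glycine transporter SLC6A9 0.23 ± 0.23. None of these passed.

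ATF4 itself had a log2 intensity of 12.11 ± 0.18 in ICC, 12.04 ± 0.42 in CA and 11.99 ± 0.32 in Control (SD, n = 3 each). The arrays of the 3 groups overlapped, and the differences between group means were smaller than the SD within each group. That SD includes the differences between replicate numbers given below. With the number as a block, ICC minus Control was 0.12 ± 0.098 log2 (SE, limma adjusted p = 0.625). CA minus Control was then 0.055 ± 0.098 (limma adjusted p = 0.929), so neither passed.

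**Figure D2:**
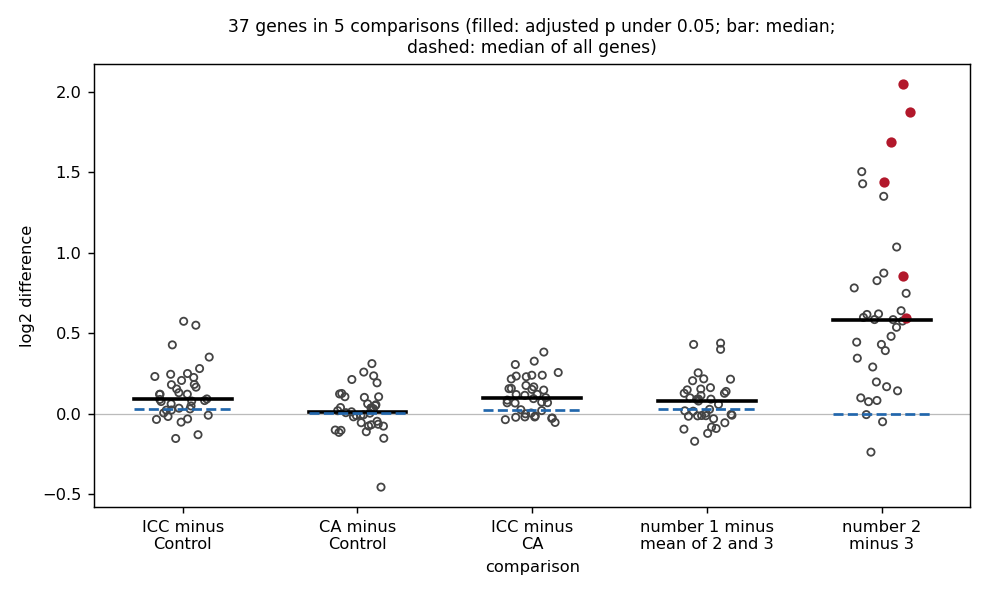
Log2 difference of each of the 37 genes (points) in 5 comparisons, filled where the limma adjusted p was under 0.05, with the median of the 37 genes (bar) and of all 19775 genes (dashed). The points of the 3 treatment comparisons lie on both sides of 0, with more above it. Only number 2 minus number 3 holds filled points, 6 of them, with a median of 0.58.

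The arrays were then compared by replicate number, each number holding 1 array of ICC, 1 of CA and 1 of Control, in a model with the treatment group as a further term. Against number 3, number 2 was higher for 6 of the 37 genes at an adjusted p under 0.05 (16.2%), and lower for none. Over all genes 0.936% were higher and 1.73% passed in either direction. The 6 were ATF4, DDIT3, CEBPG, DDIT4, SESN2 and CHAC1. At an unadjusted p under 0.05, 27 of 37 were higher and 1 was lower, against 7.39% higher and 6.99% lower of all genes. Of the 37 differences 34 were above 0, against 48.8% of all genes, and their median was 0.58 log2, against -0.003 for all genes. Number 2 exceeded number 3 in all 3 groups for 29 of 37 genes, against 16.6% of all genes, and the arrays of the numbers did not overlap, with number 2 the higher, for 23 of 37, against 9.47%.

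The calls rested on few arrays. Leaving out any one of the arrays numbered 2 or 3 of CA or of Control left 0 of the 37 genes passing, and leaving out ICC replicate 2 left ATF4 alone. With Control replicate 1 left out the count was 17, and with ICC replicate 3 left out it was 11. The calls over all genes also depended on single arrays, with 343 passing on all arrays and 6 to 360 with an array left out. Across these fits the difference of ATF4 was 0.47 to 0.71 log2 and that of DDIT4 1.64 to 2.61. The median difference kept its sign in these fits, between 0.40 and 0.71 log2. GAPDH control probe sets gave a 3′ minus 5′ log2 difference of 0.01, 0.02 and -0.01 on the number 2 arrays of ICC, CA and Control, against 0.09, 0.03 and 0.02 on the number 3 arrays. For ACTB these were 0.40, 0.35 and 0.28 on number 2 arrays and 0.35, 0.29 and 0.32 on number 3 arrays. The summed intensity of the 5 fibroblast markers was 274, 270 and 245 on the number 2 arrays of ICC, CA and Control, against 257, 260 and 233 on the number 3 arrays, with 5, 2 and 2 of the 5 markers higher on number 2. That of the 4 leukocyte markers was 9511, 9215 and 9624 on number 2 arrays and 9300, 9042 and 9302 on number 3 arrays, with 2 of 4 markers higher on number 2 in each group. LYZ, at a mean log2 of 13.05 against at most 7.14 for the others, makes up most of these leukocyte sums. The 12 colon epithelium markers summed to 56639, 56947 and 57227 on number 2 arrays and to 59332, 57838 and 59721 on number 3 arrays, with 5, 3 and 3 of the 12 markers higher on number 2. The endothelium sums overlapped between the numbers, at 104 to 114 and 105 to 112. The part of these measures in the result was not tested.

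Among the 8 transcription factors and regulators, 3 passed, all 8 had a difference above 0 between numbers 2 and 3, and the median difference was 0.80 log2. ATF4 had a log2 intensity of 12.25, 12.51 and 12.26 on the number 2 arrays of ICC, CA and Control, against 11.91, 11.69 and 11.64 on the number 3 arrays. The number 2 arrays lay above the number 3 arrays in every group without overlap. The difference was 0.60 ± 0.098 log2, or 1.51-fold (SE; limma adjusted p = 0.0251).

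DDIT3 encodes CHOP, a factor that ATF4 induces and that promotes cell death when stress lasts. It had 9.35, 9.53 and 9.14 on the number 2 arrays of ICC, CA and Control, against 8.36, 7.84 and 7.51 on the number 3 arrays. The groups of arrays did not overlap, and the difference was 1.44 ± 0.25 log2, or 2.71-fold (adjusted p = 0.0277). CEBPG, a C/EBP protein that dimerises with ATF4, had 9.74, 10.22 and 9.78 on number 2 arrays, against 9.32, 8.87 and 8.98 on number 3 arrays. It differed by 0.86 ± 0.16 log2 (adjusted p = 0.0349), with Control replicate 1 at 9.87 and second to CA replicate 2.

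TRIB3, a pseudokinase that binds ATF4 and dampens its activity, spanned a wide range without passing. Its log2 intensity was 10.51, 11.55 and 10.69 on ICC arrays 1, 2 and 3, 10.40, 12.13 and 9.93 on CA arrays, and 11.65, 11.03 and 9.80 on Control arrays. The number 1 array was the highest of the Control arrays and the lowest of the ICC arrays. NUPR1, a small stress-induced chromatin protein, likewise had its highest array in Control replicate 1 (7.77), followed by CA replicate 2 (7.61). CEBPB, another C/EBP partner, and JDP2, a factor that pairs with AP-1 proteins, had number 2 arrays at 12.30 to 12.75 and 6.84 to 7.36, against number 3 arrays at 11.85 to 12.28 and 6.09 to 6.80. ATF5 had the reverse order within ICC, with 7.54 on ICC replicate 2, against 7.76 on ICC replicate 3.

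Among the 4 genes that restrain growth or degrade glutathione, 3 passed, and the median difference was 1.78 log2. DDIT4 had a log2 intensity of 11.96, 12.49 and 11.67 on the number 2 arrays of ICC, CA and Control, against 11.05, 9.72 and 9.19 on the number 3 arrays. The number 3 arrays of CA and Control were the lowest of the 9, and the number 1 arrays were at 11.39 in ICC, 11.03 in CA and 11.82 in Control. The difference between numbers 2 and 3 was 2.05 ± 0.37 log2, or 4.14-fold (adjusted p = 0.0308).

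CHAC1 had 9.13, 9.86 and 9.04 on number 2 arrays, against 8.46, 7.25 and 6.71 on number 3 arrays, a difference of 1.87 ± 0.33 log2 or 3.66-fold (adjusted p = 0.0308). SESN2 had 9.32, 9.76 and 9.11 on number 2 arrays, against 8.57, 7.44 and 7.09 on number 3 arrays, a difference of 1.69 ± 0.30 log2 or 3.23-fold (adjusted p = 0.0303). In both genes CA replicate 2 was the highest array and Control replicate 3 the lowest. EIF4EBP1, which blocks the cap-binding factor eIF4E, differed less. It had 9.25, 9.37 and 9.04 on number 2 arrays and 8.89, 8.65 and 8.78 on number 3 arrays, a difference of 0.44 ± 0.097 log2 that missed the threshold (adjusted p = 0.0516).

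**Figure D3:**
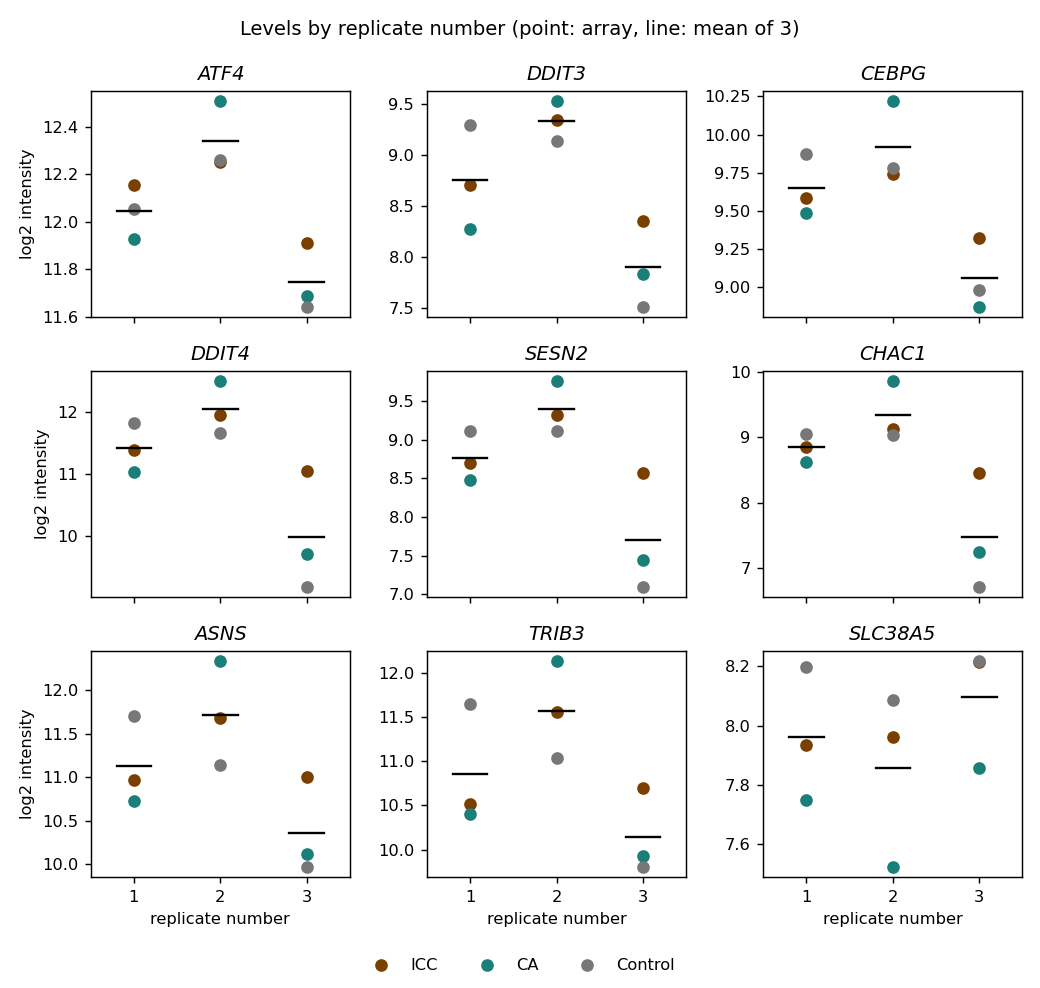
Log2 intensity of 9 genes by replicate number, with a point for each array (ICC brown, CA green, Control grey) and a line at the mean of 3 arrays. For ATF4, DDIT3, CEBPG, DDIT4, SESN2 and CHAC1 the points of number 2 all lie above those of number 3, and for SLC38A5 the mean of number 2 lies below that of number 3.

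Among the 8 measured genes of amino acid synthesis none passed, and 7 had a difference above 0, with a median of 0.71 log2 and 6 at an unadjusted p under 0.05. ASNS had a log2 intensity of 10.97, 11.68 and 11.01 on ICC arrays 1, 2 and 3. On CA arrays it had 10.73, 12.33 and 10.12, and on Control arrays 11.70, 11.14 and 9.97. The number 2 arrays lay above the number 3 arrays, but Control replicate 1 lay above 2 of the arrays numbered 2. PSAT1, the aminotransferase of serine synthesis, had 12.07, 12.52 and 11.80 on number 2 arrays and 11.68, 11.20 and 11.03 on number 3 arrays. Its difference of 0.83 ± 0.18 log2 missed the threshold (limma adjusted p = 0.0519).

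Of the remaining enzymes of serine synthesis, PHGDH, the first enzyme, had a narrower range over the 9 arrays, 1.58-fold, than PSPH, at 2.55-fold. CTH had 8.15, 8.84 and 7.73 on the number 2 arrays of ICC, CA and Control, against 7.32, 6.45 and 6.44 on the number 3 arrays, which did not overlap. PCK2, the mitochondrial enzyme that makes phosphoenolpyruvate, spanned 2.85-fold. CBS, which makes cystathionine from homocysteine, and ALDH1L2, a mitochondrial folate enzyme, were dim, with group means between 4.78 and 5.64, and each stayed within 1.26-fold over the 9 arrays.

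Among the 8 transporters none passed, 7 had a difference above 0 and the median was 0.31 log2. SLC38A2, which takes up small neutral amino acids, had 12.83, 13.08 and 12.82 on number 2 arrays, against 12.48, 12.29 and 12.22 on number 3 arrays, and did not overlap. SLC3A2, the heavy chain that brings SLC7A5 to the membrane, had 11.10, 11.40 and 11.18 on number 2 arrays, against 10.86, 10.55 and 10.52 on number 3 arrays. SLC7A5, the light chain, did not separate in this way, with 11.74, 11.93 and 11.56 on number 2 arrays and 11.88, 11.40 and 11.52 on number 3 arrays. The arginine transporter SLC7A1 lay at 12.62, 12.93 and 12.61 on number 2 arrays and 12.40, 12.18 and 12.29 on number 3 arrays. SLC1A4, which exchanges serine and alanine, and SLC1A5 were higher on number 3 than on number 2 in ICC and lower in CA and Control. SLC38A5 was the single transporter with number 2 below number 3 in all 3 groups.

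Among the 6 measured genes of tRNA charging and export none passed, all 6 had a difference above 0 in each of the 3 groups, and the median was 0.48 log2. The seryl-tRNA synthetase SARS1 had 10.92, 11.22 and 10.70 on number 2 arrays, against 10.52, 10.23 and 10.24 on number 3 arrays. The glycyl-tRNA synthetase GARS1 had 12.51, 12.78 and 12.28 on number 2 arrays and 12.30, 11.74 and 11.73 on number 3 arrays, where Control replicate 2 and ICC replicate 3 overlapped. WARS1, the tryptophanyl enzyme, spanned 1.98-fold over the 9 arrays, AARS1, the alanyl enzyme, 1.54-fold, and EPRS1, which charges glutamate and proline tRNAs, 1.37-fold. XPOT was lowest on Control replicate 1 (11.04), the array on which the 37 genes together had a median of 0.27 log2 above their means.

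The secreted stress hormone GDF15 had a log2 intensity of 11.58, 12.25 and 11.80 on ICC arrays 1, 2 and 3, 11.49, 12.73 and 11.21 on CA arrays and 12.48, 12.16 and 11.02 on Control arrays. Number 2 was above number 3 in each group. VLDLR, a lipoprotein receptor, was lowest on Control replicate 3 (6.34) and highest on Control replicate 1 (7.45). STC2 was dim, between 4.62 and 5.05, with no common order of the numbers across groups.

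The gap between numbers 2 and 3 differed in size between the groups, each group giving a single difference that cannot be tested by itself. Over the 37 genes its median was 0.27 log2 in the ICC arrays, 0.91 in the CA arrays and 0.50 in the Control arrays. It was largest in CA for 31 of 37 genes, against 33.3% of all genes. The SD within a group was smallest in ICC for 32 of 37 genes, against 33.7% of all genes. The median SD of the 37 genes was 0.181 log2 among ICC arrays, 0.488 among CA arrays and 0.370 among Control arrays, whereas for all genes it was 0.100, 0.103 and 0.098. DDIT4 differed between numbers 2 and 3 by 0.90 log2 within ICC, 2.77 within CA and 2.48 within Control, and ASNS by 0.67, 2.21 and 1.17.

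**Figure D4:**
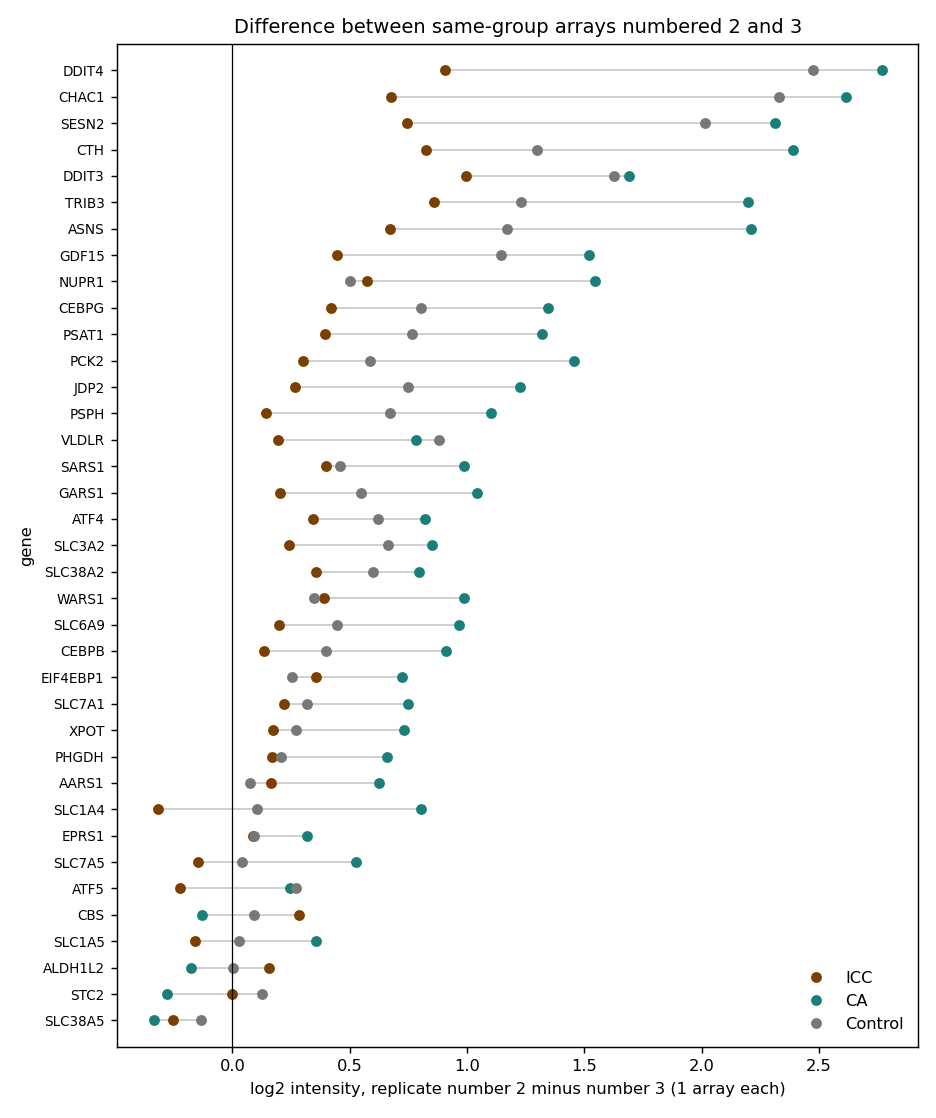
Log2 intensity on the array numbered 2 minus that numbered 3, within ICC (brown), CA (green) and Control (grey), for each of the 37 genes, sorted by mean difference. For DDIT4 the ICC point lies at 0.90, the Control point at 2.48 and the CA point at 2.77, and most other rows have the ICC point at or near the left.

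Number 1 had no common place. In Control, number 1 exceeded number 2 for 29 of 37 genes, against 52.1% of all genes, while it did so for 6 of 37 in ICC, against 62.3%, and for 3 of 37 in CA, against 51.9%. Set against the mean of numbers 2 and 3, number 1 differed for none of the 37 genes at an adjusted p under 0.05, where 5.07% of all genes passed, and for none at an unadjusted p under 0.05, where 19.7% of all genes did. The largest moderated t belonged to XPOT (-0.17 ± 0.088 log2, limma adjusted p = 0.320) and to NUPR1 (0.43 ± 0.23, adjusted p = 0.356). CEBPB, JDP2, CHAC1, EIF4EBP1, VLDLR and ATF5 followed, with differences between 0.13 and 0.44 log2. A moderated F test over the 3 numbers passed for 7 of 37 genes, against 6.15% of all genes, and the 7 were the 6 named above and EIF4EBP1 (adjusted p = 0.0424). Leaving out Control replicate 3 or CA replicate 3 turned this count to 0, leaving out Control replicate 2 to 4, and leaving out Control replicate 1 or ICC replicate 3 to 14. Over all genes the F test passed for 1217 with all arrays and for 467 to 950 with an array left out.

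Neighbouring pathways were set beside the listed genes for the same comparison of number 2 with number 3. Over all genes 0.936% passed as higher on number 2 and 0.799% as lower. A difference above 0 was found for 48.8%, and 16.6% had number 2 above number 3 in all 3 groups. Of 16 genes for the eIF2 kinases, the phosphatase subunits and the exchange factor, 1 passed and the median was 0.06 log2. It was PPP1R15A, the stress-induced phosphatase subunit GADD34 that reverses eIF2 phosphorylation, with 9.34, 9.93 and 9.57 on the number 2 arrays of ICC, CA and Control, against at most 8.74, in ICC, on the number 3 arrays. Its difference was 1.36 ± 0.26 log2 (limma adjusted p = 0.0362). The constitutive subunit PPP1R15B was 0.16 ± 0.082 log2 and did not pass.

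Of 11 further genes of amino acid and one-carbon supply, 1 passed and the median was 0.22 log2. MTHFD2, a mitochondrial folate enzyme, was higher by 0.62 ± 0.11 log2 (adjusted p = 0.0315). The cystine transporter SLC7A11 had 11.96, 12.46 and 11.86 on number 2 arrays, against 11.60, 10.79 and 10.80 on number 3 arrays, a difference of 1.03 ± 0.27 log2 that did not pass (adjusted p = 0.0929). Glutamine synthetase, GLUL, was at -0.27 ± 0.081 log2.

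The remaining synthetases were split by compartment. Of 12 cytosolic synthetases none passed, 10 had a difference above 0 and the median was 0.12 log2, with YARS1 at 0.50 ± 0.11 log2 (adjusted p = 0.0560) and CARS1 at 0.64 ± 0.16 (adjusted p = 0.0769). Of 15 mitochondrial synthetases none passed, 8 had a difference above 0 and 7 below, and the median was 0.02 log2. The number of genes with number 2 above number 3 in all 3 groups was 7 of the 12 cytosolic and 1 of the 15 mitochondrial enzymes, against 16.6% of all genes.

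The ATF6 and XBP1 arm, as listed here, holds genes of the unfolded protein response branches that raise folding capacity of the endoplasmic reticulum. It mostly went the other way. Of its 16 genes 13 had a difference below 0, the median was -0.20 log2, and 2 passed as lower on number 2. The differences ran from -0.39 to 0.79 log2. Number 2 was above number 3 in all 3 groups for 3 genes (18.8%), near the 16.6% of all genes. PDIA4, a protein disulfide isomerase, had 10.69, 10.82 and 10.92 on number 2 arrays, against 11.12, 11.12 and 11.21 on number 3 arrays, a difference of -0.34 ± 0.067 log2 (adjusted p = 0.0394). MANF, a secreted protein of the same list, differed by -0.39 ± 0.078 log2 (adjusted p = 0.0410).

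Of 9 p53 targets 2 passed, 8 had a difference above 0 and the median was 0.20 log2. CDKN1A, the cell cycle inhibitor p21, had 9.40, 10.06 and 9.59 on number 2 arrays, against 8.65, 7.99 and 7.97 on number 3 arrays, a difference of 1.48 ± 0.22 log2 (limma adjusted p = 0.0193). The death receptor FAS differed by 0.30 ± 0.065 log2 (adjusted p = 0.0483). The calls in these neighbouring lists were not followed one by one with arrays left out. Over all genes 343 passed with all arrays, 8 when Control replicate 3 was left out and 6 when CA replicate 3 was left out.

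**Figure D5:**
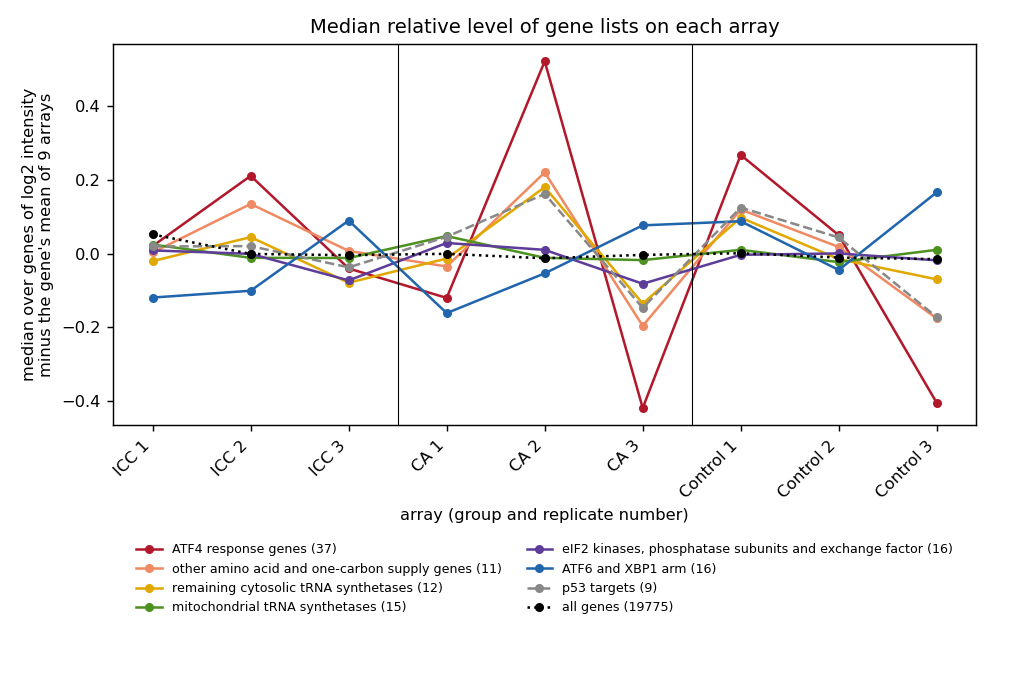
Median over the genes of each list of log2 intensity minus the gene's mean of 9 arrays, on each array, with lines joining the points of one list. The listed ATF4 response genes lie at 0.52 on CA replicate 2 and near -0.4 on CA replicate 3 and Control replicate 3, the mitochondrial synthetases stay near 0, and the ATF6 and XBP1 arm is at 0.17 on Control replicate 3.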

How the data were processed

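RNA of 9 HT29 samples was labelled with biotin and hybridised to Affymetrix HG-U133 Plus 2.0 arrays, per the labels' protocols. The submitters' processing notes name RMA, in a version not given in the sources used here, for making the deposited intensity values, and the design text names GeneSpring GX. Although log2 values had been assumed, the deposited intensities are linear, so their log2 was taken here. Among 54675 probe sets, 41091 carried a single symbol, 1801 several and 11721 none. The brightest single-symbol probe set stood for each of 19775 genes.

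Groups and replicate numbers came from the labels. The tests were limma's (version 3.58.1, R 4.3.3), by group over all 9 arrays, and by replicate number with the group as a further term. P-values were adjusted over all genes. SE is that of the moderated test. Over all genes, same-numbered arrays deviated together. The correlation of their deviations from the group means over all genes was 0.327 to 0.518 in 9 pairs. In 18 pairs of different numbers it was -0.436 to 0.0839. Deviations from a group mean cancel within the group, so the values for different numbers are partly set by this. Over the listed genes alone, same-numbered arrays did not always deviate together. The correlation was -0.449 to 0.941 in the same 9 pairs and -0.907 to 0.847 in the 18 pairs of different numbers. The treatment comparisons in the Results come from the fit by group, which does not pair the arrays by number. A fit with the number as a block was run only as an alternative. For SLC38A5, CA minus Control, the SE was 0.1041 log2 by group and 0.0755 with this block. The block lowered the SE more for genes that differed by number. For ICC minus Control it went from 0.2076 to 0.0977 log2 for ATF4 and from 0.7443 to 0.3664 for DDIT4. For SLC1A5 it went from 0.1086 to 0.1068. The fit by group is therefore the less sensitive for listed genes that differ by number. The alternatives were this block, no treatment term, a further quantile normalization, median centring, a filter at a mean log2 of 5, averaging the probe sets of each gene, leaving out probe sets ending in _x_at or _s_at, and leaving out each array. The fits were tested on simulated data.

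Differences with SE and adjusted p are given for genes that passed and for the 5 with the largest moderated t in each treatment comparison or the 8 in each comparison of numbers, and up to 3 genes of a neighbouring list. The listed genes, the neighbouring lists and the tests were chosen with earlier results of these data known, so a pattern seen in them is no independent evidence. Array number limits the precision.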

Additional observations from a re-analysis of the deposited data

How the results depend on the processing

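With the replicate number as a block, 0 of the 37 genes passed in each treatment comparison, as without it; over all genes 3 passed for CA against Control and 1 for ICC against CA, where the fit without the block had 0 and 0. SLC38A5 for CA minus Control had an adjusted p of 0.155 with the block. At an unadjusted p under 0.05, the block gave 1 of 37 genes for ICC against Control, against 12.4% of all genes. For CA against Control it gave 2 of 37, against 8.54%, and for ICC against CA 1 of 37, against 5.96%. For number 2 against 3, the 6 calls were kept with no treatment term, quantile normalization applied again, median centring and the filter on dim genes, 5 were kept with the probe sets of each gene averaged and 4 when those ending in _x_at or _s_at were left out, a setting that keeps 25 of the 37 genes and has no probe set for DDIT4 and SESN2. Over all genes 214 passed with no treatment term, against 343 with it. For number 1 against 2 and 3, 1 gene (GDF15) passed when probe sets ending in _x_at or _s_at were left out. That setting read GDF15 from a dim probe set with a mean log2 of 4.90, against 11.86 in the main fit. Number 2 minus 3 was -0.06 log2 on the dim probe set and 1.04 on the main one. Leaving out each array gave 0 to 17 of the 37 genes and 6 to 360 of all genes for number 2 against 3. For number 1 against 2 and 3 it gave 0 to 1 (CEBPB, without CA replicate 2) and 337 to 939, and for any number 0 to 14 and 467 to 950. The cause was not tested. Differences that changed sign were PSPH for CA minus Control (-0.0755 to 0.4767 over the arrays left out, the first without CA replicate 2), STC2 for CA minus Control (-0.0814 with the mean of probe sets) and VLDLR for number 1 (-0.0263 to 0.3447, the first without Control replicate 1), none of which had passed. Medians of the 37 genes ran from -0.07 to 0.28 for ICC minus Control, -0.30 to 0.23 for CA minus Control and -0.10 to 0.37 for ICC minus CA when an array was left out. Of 34 further probe sets of the listed genes, 30 had the sign of the one used for number 2 minus 3 and 4 the opposite; those 4 had a mean log2 under 5. With 3 arrays a group, and dim probe sets for ALDH1L2, SLC6A9 and STC2, small differences could not be resolved.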

Other observations

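Genes outside the listed set were among those with the largest SD within groups, and were named here after their values were seen. HBEGF, a growth factor of the EGF family, ranked 4 of 19775 genes. It had a log2 intensity of 8.50, 9.67 and 8.33 on ICC arrays 1, 2 and 3, 8.33, 10.15 and 7.63 on CA arrays and 9.76, 9.70 and 7.75 on Control arrays. EGR1 and FOS, immediate early transcription factors, ranked 6 and 9. EGR1 had 12.17, 12.54 and 12.48 on the number 2 arrays of ICC, CA and Control, against 10.52, 10.28 and 10.22 on the number 3 arrays. FOS had 8.25, 8.43 and 8.80 on number 2 arrays, against 6.98, 6.44 and 6.38 on number 3 arrays. In both genes the number 1 arrays lay between these, at 11.28 to 11.53 for EGR1 and 7.10 to 7.63 for FOS.

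ATF3, a stress-induced factor of the ATF family, ranked 18, and its highest array was CA replicate 2 (9.52) and its lowest CA replicate 3 (7.21). INHBE, an inhibin chain, ranked 15 and had 4.56, 5.46 and 4.90 on ICC arrays, 4.28, 6.32 and 4.11 on CA arrays and 6.10, 5.30 and 4.21 on Control arrays. ERN1, the endoplasmic reticulum stress sensor IRE1, ranked 28, with 8.82, 9.67 and 8.81 on number 2 arrays and 8.45, 7.53 and 7.69 on number 3 arrays. Some other genes with a large SD did not have number 2 above number 3 in all groups. PIGR, which carries immunoglobulin across epithelia, ranked 14 and had 6.08, 5.75 and 5.96 on number 2 arrays, against 7.81, 7.61 and 7.81 on number 3 arrays. CXCL6, a chemokine, ranked 12, with 6.76, 6.38 and 6.65 on number 2 arrays and 7.48, 6.99 and 7.51 on number 3 arrays. HCP5 and TRIM22 ranked 3 and 8 and were highest on the number 1 arrays, which reached 7.96 and 9.57, against at most 6.32 and 7.91 on the others. No test is given for genes chosen in this way.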
